A study of Mus musculus with 161 samples.

Results

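CTCF lacking residues 1 to 265, written ΔN here, was compared with the absence of CTCF across a region of the mouse X chromosome that holds Xist. The comparison took all 10 chromosome conformation capture carbon copy (5C) libraries of ΔN, 6 of clone 1 (line EN186.4) and 4 of clone 2 (line EN186.6), and both libraries of the full-length line EN133.10 that had received auxin without doxycycline (dox). These 12 libraries are part of the 91 5C libraries of the series. Some of the 91 come from untreated cells. In the others endogenous CTCF is degraded, and CTCF transgenes are put in its place where dox is given. 5C counts ligation products between restriction fragments with pools of forward and reverse primers, so it reports how often stretches of a region touch.

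All lines were male mouse embryonic stem cells derived from E14Tg2a whose own CTCF carries a degron tag (AID) that auxin activates through the plant protein Tir1, and that express the rtTA3G transactivator. The transgene sits behind a dox-inducible TetO promoter and encodes ΔN in the first group and full-length CTCF in the second. All 12 cultures had auxin at 500 µM for 4 days. The ΔN cultures also had dox at 1 µg/ml for 4 days, whereas the no dox cultures had none, so that neither the endogenous protein nor the transgene was meant to be present. For reference, values of the 14 libraries of EN133.10 with auxin and dox for 4 days stand beside the others as full-length, and they entered a fit of ΔN only where the run of library numbers is named as a term. The 2 arms come from different cell lines, 2 clones for ΔN and 1 line for no dox. They also come from different runs of library numbers, called C for no dox and D, E and G for ΔN, so the construct cannot be told apart from line and run by the 12 libraries alone. The study calls its replicates biological, and the labels do not say which libraries came from separate cultures, so p-values measure the spread between libraries, part of which may be technical. CTCF protein was not measured in these libraries, and the deletion itself could not be checked from them. From other cultures the paper describes slightly higher expression of ΔN by Western blot, without naming the comparison in the legend. It also reports that insulation rose linearly with the level of the full-length transgene. The shares of the distance to full-length given below are not adjusted for expression.

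CTCF binds DNA through a central array of zinc fingers, and its binding sites have a direction. Cohesin extrudes loops of chromatin until it is held at CTCF sites, mostly those that face the incoming complex. The N terminus of CTCF, which points towards the inside of such loops, is the side that touches cohesin. Topologically associating domains (TADs) are the stretches of preferred contact between such sites, and their borders are called boundaries.

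The region spans 230 bins of 20 kb on mm9 chromosome X and has 6 boundaries that the study fixed in cells with CTCF. Of the 78 FLAG-CTCF peaks deposited for full-length CTCF in this region, 31 (39.7%) hold a match, on either strand, to CCA, any 2 bases, AG, any 2 bases and GGC, a plain-letter form of the CTCF core motif. The match occurred in 43.3% of the 1128 peaks of the whole chromosome and in 1.40% of all 23001 windows of 200 bases in the region. Among the matches in the region, 18 were on the plus strand, called forward, and 13 on the minus strand, called reverse. For each boundary 1 peak with a match is shown, the nearest for boundary 5, and 1 for each end of the only pair of bins whose contact was called. They are printed from the mm9 plus strand with the match in capitals, which reads as its reverse complement in reverse peaks.
Boundary 1, forward, intron of Nhsl2, chrX:99170321-99170520: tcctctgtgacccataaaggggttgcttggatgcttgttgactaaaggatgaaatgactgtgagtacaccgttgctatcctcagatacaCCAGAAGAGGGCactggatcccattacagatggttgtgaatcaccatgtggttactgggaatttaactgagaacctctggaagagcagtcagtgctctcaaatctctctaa
Boundary 2, forward, 27537 bp from Cited1, chrX:99415083-99415282: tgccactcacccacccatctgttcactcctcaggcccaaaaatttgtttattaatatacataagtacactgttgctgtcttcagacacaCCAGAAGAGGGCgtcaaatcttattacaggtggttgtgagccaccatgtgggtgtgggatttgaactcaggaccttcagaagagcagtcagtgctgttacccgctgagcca
Boundary 3, forward, intron of 4930519F16Rik, chrX:100455304-100455503: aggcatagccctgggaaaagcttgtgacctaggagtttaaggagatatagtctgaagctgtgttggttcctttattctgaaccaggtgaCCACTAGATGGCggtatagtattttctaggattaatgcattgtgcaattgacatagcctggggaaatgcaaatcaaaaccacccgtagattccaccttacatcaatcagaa
Boundary 4, forward, exon of Tsix, chrX:100679482-100679681: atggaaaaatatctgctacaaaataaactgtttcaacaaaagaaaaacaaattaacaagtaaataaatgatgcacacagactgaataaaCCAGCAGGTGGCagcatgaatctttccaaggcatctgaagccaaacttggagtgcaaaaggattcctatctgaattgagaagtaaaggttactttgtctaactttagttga
Ahead of boundary 5, reverse, 9341 bp from Rlim, chrX:101185864-101186063: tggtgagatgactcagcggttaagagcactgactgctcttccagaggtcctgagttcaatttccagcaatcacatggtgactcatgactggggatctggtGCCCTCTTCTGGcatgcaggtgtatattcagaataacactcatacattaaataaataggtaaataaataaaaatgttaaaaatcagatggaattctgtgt
Boundary 6, forward, intron of Cox7b, chrX:103214234-103214433: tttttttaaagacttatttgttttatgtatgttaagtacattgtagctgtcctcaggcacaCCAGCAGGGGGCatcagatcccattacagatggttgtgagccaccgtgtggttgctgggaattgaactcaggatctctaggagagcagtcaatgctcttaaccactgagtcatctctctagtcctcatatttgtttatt
Hdac8 bin, reverse, intron of Hdac8, chrX:99672225-99672424: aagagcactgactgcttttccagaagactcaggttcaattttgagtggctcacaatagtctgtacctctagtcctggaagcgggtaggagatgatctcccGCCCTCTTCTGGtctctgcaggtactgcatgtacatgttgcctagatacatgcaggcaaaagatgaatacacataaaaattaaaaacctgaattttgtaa
Tsix bin, reverse, intron of Tsix, chrX:100639186-100639385: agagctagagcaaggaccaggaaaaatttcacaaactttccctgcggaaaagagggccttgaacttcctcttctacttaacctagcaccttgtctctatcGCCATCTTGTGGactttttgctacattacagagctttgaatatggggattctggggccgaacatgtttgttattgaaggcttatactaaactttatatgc
Every match in a boundary bin was forward, with 1 matching peak each at boundaries 1 and 3 and 2 each at boundaries 2, 4 and 6. Boundary 5 held no peak, and the nearest match was the reverse one printed. The word CCAGAAGAGGGC made up 15 of the matches in the region.

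The ΔN libraries held 4509541 to 23419010 counts. No dox replicate 1 held 9498128 counts, and the count matrix of no dox replicate 2 stops early, with 7692752 counts in the part held. Its corrected matrix is complete, so that all results below except those named as raw counts use whole maps. Bin pairs at 0 between 40 and 1000 kb made up 0.154 to 2.54% of the ΔN maps against 0.437 and 0.488% of the no dox maps.

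The first question was how much insulation ΔN gave over no CTCF. The insulation score of a bin is the negative log2 of its contacts across a 100-kb window relative to the mean bin, so a higher score means fewer contacts across. Averaged over the 6 boundaries, it ran from 0.46 to 0.52 in the ΔN libraries with a median of 0.48, and was 0.37 and 0.38 in the no dox libraries. All 10 ΔN libraries lay above both no dox libraries and below all 14 full-length libraries, which ran from 0.54 to 0.71. The ΔN mean of 0.48 ± 0.019 (SD, n = 10) exceeded the no dox mean by 0.10, which is 45.2% of the distance from no dox to full-length. That share includes boundary 4, where the ΔN mean of 1.48 stood above the full-length mean of 1.38. At boundaries 2, 3 and 5 alone the share was 16.0, 8.26 and 16.4%, and at boundaries 1 and 6 it was 43.4 and 79.2%. The exact permutation test gave p = 0.0303, the smallest that 10 against 2 libraries allow.

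The differences at single boundaries were largest at boundaries 4 and 6. Boundary 4 (chrX:100671148-100691147) lies over the exons of Xist, the RNA that silences the X chromosome, and of Tsix, its antisense repressor. Its score ran from 1.39 to 1.65 in ΔN with a median of 1.44, and was 1.17 and 1.27 in no dox. The groups did not overlap, and the difference was 0.26 (exact permutation test, p = 0.0303, Benjamini-Hochberg adjusted p = 0.0909). The ΔN mean of 1.48 ± 0.079 (SD, n = 10) fell inside the full-length range of 1.15 to 1.68, but so did both no dox values. The full-length mean was 1.38, below the ΔN mean. Boundary 6 (chrX:103211148-103231147) lies at Cox7b, a subunit of cytochrome c oxidase, and ahead of Atp7a, a copper transporter. Its score ran from 0.59 to 0.72 in ΔN with a median of 0.63, and was 0.44 and 0.43 in no dox. Again the groups did not overlap, with a difference of 0.21 (exact permutation test, p = 0.0303, adjusted p = 0.0909). The ΔN mean of 0.64 ± 0.049 (SD, n = 10) lay 79.2% of the way from no dox to the full-length mean of 0.70.

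At the other 4 boundaries ΔN overlapped no dox. Boundary 3 (chrX:100451148-100471147) scored −0.02 to 0.19 in ΔN with a median of 0.09, and 0.07 and 0.06 in no dox. All 14 full-length libraries stood above both, from 0.30 to 0.44, and the ΔN mean covered 8.26% of that distance (exact permutation test, p = 0.394). Boundary 5 (chrX:101211148-101231147) scored 0.35 to 0.47 in ΔN with a median of 0.42, and 0.33 and 0.38 in no dox, where full-length ran from 0.63 to 0.79. Its difference of 0.06 was 16.4% of that between full-length and no dox (exact permutation test, p = 0.0606). Boundary 2 (chrX:99411148-99431147), near the coactivator gene Cited1, averaged 0.50 ± 0.051 (SD, n = 10) in ΔN, against 0.49 and 0.44 in no dox and 0.66 in full-length. Boundary 1 (chrX:99151148-99171147) averaged −0.24 ± 0.048 (SD, n = 10), against −0.27 in both no dox libraries and −0.18 in full-length. The exact permutation tests gave p = 0.485 and p = 0.333 for these last 2. After adjustment over the 6 boundaries 0 differed, since adjusted calls at 10 against 2 need at least 4 boundaries at the smallest p.

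**Figure D1:**
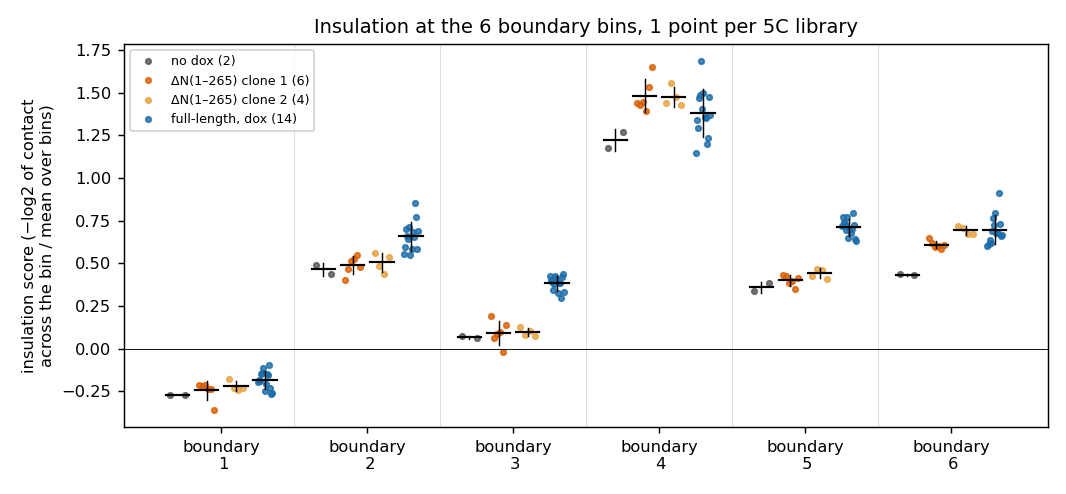
Insulation score (log2, vertical axis) at each of the 6 boundaries, 1 point per library, for no dox (2), ΔN clone 1 (6), ΔN clone 2 (4) and full-length (14), with bars for the mean and SD. At boundaries 4 and 6 all ΔN points lie above both no dox points and reach into the full-length range, which at boundary 4 also holds both no dox points. At boundary 3 the ΔN points lie among the no dox points and below the full-length range of 0.30 to 0.44.

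The second question was where else along the map the score moved. Across the 193 bins with a score, limma called 52 (26.9%) between ΔN and no dox at a Benjamini-Hochberg adjusted p under 0.05, 27 higher in ΔN (14%) and 25 lower (13%). In 55 bins (28.5%) the groups did not overlap, and 47 of the called bins were among them. Neighbouring bins share contacts, so these calls are not independent. The called bins formed 25 stretches. In the 42 bins within 60 kb of a boundary bin, 14 were called higher and 3 lower, and in the bins farther away 13 were called higher and 22 lower. Of the 41 bins with a CTCF peak 12 (29.3%) were called, 6 in each direction, and of the bins without a peak 26.3%, both near the share of all bins. Boundaries 4 and 6 were both called here, with limma adjusted p = 0.00123 and 0.000547.

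The median absolute difference from no dox was 0.067 over the 193 bins, against 0.022 between the clones of ΔN, and the largest was 0.29 against 0.11. These are not like for like, since the clones share runs D and E, while no dox has 2 libraries, both of run C. Between clones limma called 0 bins (0%) after adjustment, and 5 had an unadjusted p under 0.05. Clone 1 alone and clone 2 alone each gave 48 calls against no dox, of which 36 were the same bins with the same sign. Both fits used the same no dox libraries, so the shared calls are not independent. Leaving out either no dox library left 13 calls, and 8 of the 52 were called both times. With the run of library numbers as a term, linked through the full-length libraries, 28 bins were called, 22 of them among the 52, and 49 of the 52 kept their sign. From raw counts 9 bins were called. Of the 52, 41 could be scored there, 40 with the same sign and 4 called.

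The strongest change was a loss of insulation at Rlim, which encodes a ubiquitin ligase that takes part in X inactivation. The bin inside Rlim (chrX:101151148-101171147) scored 0.35 to 0.42 in ΔN with a median of 0.39, and 0.68 in both no dox libraries. The full-length mean was 0.35, so that ΔN and full-length libraries lay together and no dox stood apart. The difference was −0.29 ± 0.029 (SE, limma adjusted p = 8.36e-07). It was −0.31 with the run term and −0.27 from raw counts, with limma adjusted p = 1.26e-05 and 0.00117. The bin beside it (chrX:101131148-101151147), which holds 1 peak, scored 0.31 to 0.40 in ΔN against a no dox mean of 0.62 and a full-length mean of 0.31. Both belong to a stretch of 4 called bins from chrX:101111148-101191147, which holds 4 peaks and averaged 0.43 ± 0.018 (SD, n = 10) in ΔN, 0.63 and 0.64 in no dox and 0.43 in full-length.

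Beyond the Rlim stretch, on the far side of boundary 5, the score rose. The 3 bins of chrX:101231148-101291147 averaged 0.45 ± 0.036 (SD, n = 10) in ΔN against 0.28 and 0.30 in no dox. Here ΔN stayed below every full-length library, which ran from 0.58 to 0.77. Around boundary 5, then, insulation was lower than without CTCF on one side and higher on the other, and full-length lay level with ΔN on the first side and above it on the second.

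At Xist the rise covered more than the boundary bin. The 4 bins from Tsix to past Enox (chrX:100651148-100731147), the last also known as Jpx and a non-coding activator of Xist, averaged 1.07 ± 0.068 (SD, n = 10) in ΔN against 0.82 and 0.90 in no dox and 0.97 in full-length. The bin over Tsix and Xist (chrX:100651148-100671147) scored 1.52 to 1.77 in ΔN with a median of 1.57, against 1.30 and 1.46 in no dox. Its difference was 0.22 ± 0.052 (SE, limma adjusted p = 0.00488). The Enox bin (chrX:100691148-100711147) scored 0.67 to 0.92 with a median of 0.73, against 0.54 and 0.60 in no dox, a difference of 0.19 (limma adjusted p = 0.00714). In that bin the ΔN mean of 0.76 stood above the full-length mean of 0.59. From raw counts the differences in these bins were 0.26 and 0.25, and neither passed (limma adjusted p = 0.230 and 0.243).

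Ahead of boundary 6 the score fell and then rose. At Fgf16, a fibroblast growth factor gene, and Atrx, which encodes a chromatin remodeller, 4 bins of chrX:102951148-103031147 averaged 0.46 ± 0.039 (SD, n = 10) in ΔN, 0.66 and 0.67 in no dox and 0.58 in full-length. The bin next to Fgf16 (chrX:102971148-102991147) scored 0.42 to 0.57 in ΔN with a median of 0.51, and 0.78 and 0.77 in no dox. Its difference was −0.27 ± 0.034 (SE, limma adjusted p = 1.52e-05), the full-length mean of 0.66 lying between. The Atrx bin (chrX:102991148-103011147) differed by −0.24 (limma adjusted p = 5.86e-05) and the Fgf16 bin (chrX:102951148-102971147) by −0.18 (limma adjusted p = 0.000717). The 5 bins of chrX:103151148-103251147, from the magnesium transporter gene Magt1 over Cox7b to Atp7a, rose to 0.31 ± 0.022 (SD, n = 10) from 0.17 in both no dox libraries, with 0.32 in full-length. Within them the bin of Cox7b and Magt1 (chrX:103191148-103211147) scored 0.56 to 0.68, against 0.45 and 0.43 in no dox (difference 0.18, limma adjusted p = 0.000547). The deposited part of the count matrix of no dox replicate 2 does not reach these bins, and no raw count value exists for them.

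Away from boundaries, 4 bins over Phka1 (chrX:99751148-99831147), a regulatory subunit of phosphorylase kinase, averaged −0.14 ± 0.033 (SD, n = 10) in ΔN, −0.26 and −0.32 in no dox and −0.25 in full-length. The last of them (chrX:99811148-99831147), next to a stretch without scores, ran from −0.32 to −0.15 in ΔN and was −0.37 and −0.45 in no dox. Its difference of 0.18 passed in limma as reported, with the run term and from raw counts (adjusted p = 0.00246, 0.00632 and 0.0113). In that bin the full-length mean of −0.28 lay between ΔN and no dox. The bin of 5530601H04Rik (chrX:102251148-102271147) averaged 0.34 in ΔN, 0.51 in no dox and 0.43 in full-length (difference −0.18, limma adjusted p = 0.00372). With the run term that difference was 0.025 with an adjusted p of 0.827. Among the alternatives run for the 10 bins named outside the boundaries, that was the only reversal of sign.

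**Figure D2:**
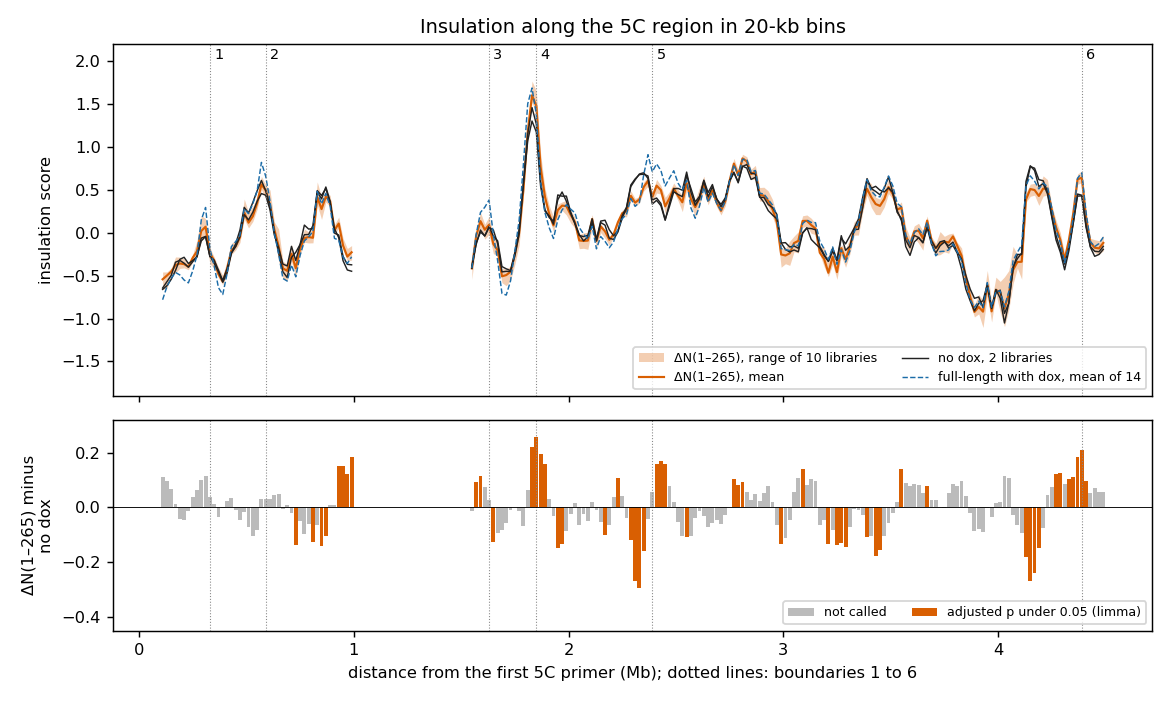
Insulation score (log2) along the region, with distance from the first primer in Mb on the horizontal axis. The upper panel gives the mean and range of ΔN, both no dox libraries and the full-length mean, the lower panel gives ΔN minus no dox for each bin with the 52 called bins in orange, and dotted lines stand at the 6 boundaries. The deepest drop, −0.29, lies at Rlim just ahead of boundary 5, and the bins at boundaries 4 and 6 rise together with their neighbours.

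The third comparison asked how ΔN changed contacts that cross a boundary. For each bin pair the contact was divided by the mean at the same separation in the same library, and the mean log2 of this observed over expected ratio was taken over pairs 40 to 1000 kb apart with 1 boundary between them. Contacts across all 6 boundaries were lower in ΔN than in no dox, and 5 of the 6 passed the exact permutation test (p = 0.0303, adjusted p = 0.0364 for each). The largest difference was at boundary 3, whose own insulation score did not differ. There the ΔN libraries ran from −0.27 to −0.08 with a median of −0.16 and averaged −0.16 ± 0.065 (SD, n = 10) over 235 bin pairs, against 0.17 and 0.19 in no dox and −0.08 in full-length.

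Across boundary 2 ΔN averaged −0.45 ± 0.027 (SD, n = 10), against −0.20 and −0.22 in no dox, and the full-length mean was −0.43. At boundaries 2 and 3 the ΔN mean thus lay as low as the full-length mean or lower, at 110% and 130% of the step from no dox to full-length. Across boundary 1 the values were 0.23 ± 0.031 (SD, n = 10) in ΔN, 0.34 and 0.31 in no dox and 0.09 in full-length. Across boundary 5 they were −0.50 ± 0.055 (SD, n = 10), −0.36 and −0.39, and −0.76. At boundaries 1 and 5 the step was 39.5% and 31.7% of that to full-length. Across boundary 6 ΔN averaged −0.41 ± 0.056 (SD, n = 10), below −0.23 and −0.20 in no dox, while full-length lay above both at 0.05. With the run of library numbers as a term, the difference from no dox was −0.06 at boundary 6 instead of −0.19, −0.27 at boundary 3 and −0.13 at boundary 1, values given without a test. Boundary 4, with the highest score, separated its sides in every group, at −1.19 in ΔN, −1.06 and −1.07 in no dox and −1.15 in full-length (exact permutation test, p = 0.0909). From raw counts all these differences kept their sign and 0 passed.

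**Figure D3:**
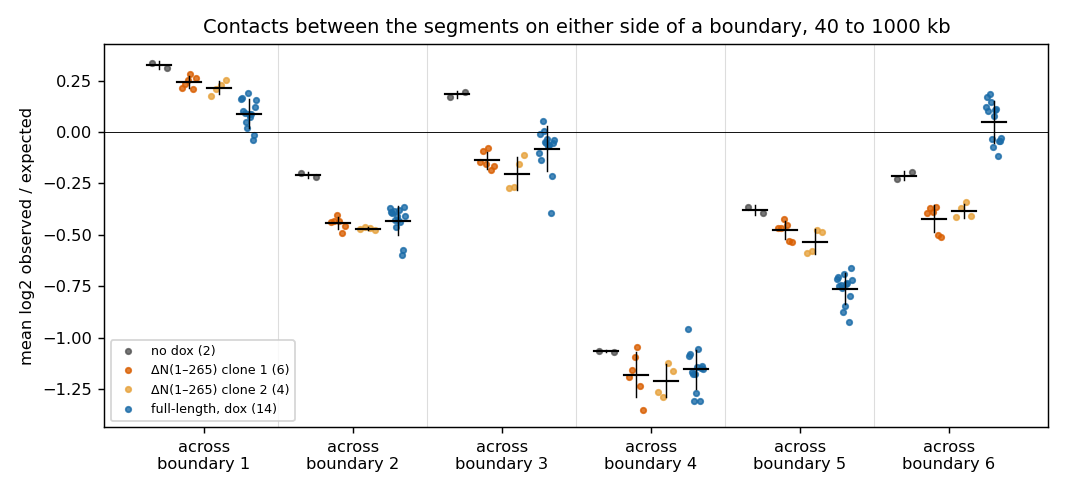
Mean log2 observed over expected contact (vertical axis) of bin pairs 40 to 1000 kb apart across each boundary, 1 point per library for no dox, both ΔN clones and full-length, with bars for the mean and SD. Across all 6 boundaries the ΔN points sit lower than no dox on average, most of all at boundary 3, and across boundary 6 full-length points sit above both groups.

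Inside the 7 segments that the boundaries make, 0 differences passed after adjustment, and segments 1, 3, 5 and 7 reached the smallest p (exact permutation test, p = 0.0303, adjusted p = 0.0530). Segment 1 (320 kb) averaged 0.23 ± 0.033 (SD, n = 10) in ΔN, 0.30 and 0.32 in no dox and 0.42 in full-length. Segment 3 (1020 kb) averaged 0.07 ± 0.056 (SD, n = 10), against 0.17 and 0.15, with 0.22 in full-length. In these 2 segments the ΔN mean lay on the far side of no dox from the full-length mean. In segment 3, however, the full-length libraries ran from 0.09 to 0.31, around both no dox values. Segment 5 (520 kb) averaged −0.02 ± 0.019 (SD, n = 10), against −0.06 in both no dox libraries and 0.05 in full-length, and segment 7 (200 kb) averaged −0.22 against −0.10 in both and −0.35. With the run term the difference at segment 7 went from −0.12 to −0.03 and that at segment 5 from 0.04 to 0.09. When the ratio was averaged before taking its log2, 5 segments passed.

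Contacts by distance moved by small amounts. The share of summed contact at 40 to 100 kb ran from 24.5 to 26.9% in ΔN with a median of 25.8%, and was 24.4 and 24.2% in no dox. At 200 to 500 kb ΔN averaged 24.0% ± 0.21 (SD, n = 10) against 24.8 and 25.0%, and at 500 to 1000 kb 14.9% ± 0.23 (SD, n = 10) against 15.8% in both. The full-length means were 25.1, 25.0 and 15.4%. With the run term the difference at 40 to 100 kb was 0.811 instead of 1.55 percentage points. Each of these 3 classes reached the smallest p, and 0 of the 6 classes passed after adjustment (exact permutation test, adjusted p = 0.0606). Without clone 2 replicate 1, which had the lowest short-range share of its clone, 5 classes passed.

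The next comparison turned to contacts between CTCF peaks. Over pairs of bins 100 to 1000 kb apart, the mean log2 observed over expected contact of pairs with a peak on both sides, less that of pairs with none, ran from 0.32 to 0.43 in ΔN with a median of 0.36, and was 0.46 and 0.47 in no dox. All ΔN libraries lay below both no dox libraries, and the difference was −0.09 (exact permutation test, p = 0.0303). The full-length mean was 0.47, level with no dox, and its libraries ran from 0.40 to 0.56. So contact between peak bins was lower with ΔN than without CTCF. The parts were unequal. Over the 344 pairs with a peak on both sides ΔN averaged 0.06 ± 0.050 (SD, n = 10) against 0.16 and 0.17 in no dox and 0.10 in full-length. Over the 4506 pairs with none it averaged −0.31 ± 0.045 (SD, n = 10) against −0.30 in both and −0.36 in full-length (exact permutation test of ΔN against no dox, p = 0.879). Over 2349 pairs with a peak on one side it averaged −0.20 against −0.13 and −0.14, with −0.20 in full-length as well. By distance the differences were −0.06 at 100 to 300 kb, −0.09 at 300 to 600 kb and −0.13 at 600 to 1000 kb, none of which passed on its own.

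Sorted by the direction of the motif matches, the pairs are few and are given as a description. The 20 convergent pairs, whose matches point at each other, gave a log2 mean ratio of 0.15 to 0.50 in ΔN with a median of 0.32, and 0.43 and 0.35 in no dox. Full-length libraries stood apart from both at 0.52 to 0.97. The 11 tandem reverse pairs gave −0.31 to −0.04 in ΔN, 0.01 and 0.15 in no dox and 0.08 in full-length, so that ΔN lay below no dox in every library. For the 27 tandem forward pairs the means were 0.25 in ΔN, 0.45 and 0.49 in no dox and 0.41 in full-length, and for the 18 divergent pairs 0.18 in ΔN, 0.47 and 0.26 in no dox and 0.10 in full-length. Of the 4 classes, convergent pairs were the one in which every full-length library lay above both no dox libraries. The ΔN libraries overlapped no dox in that class. For tandem reverse pairs the full-length and no dox means were both 0.08.

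**Figure D4:**
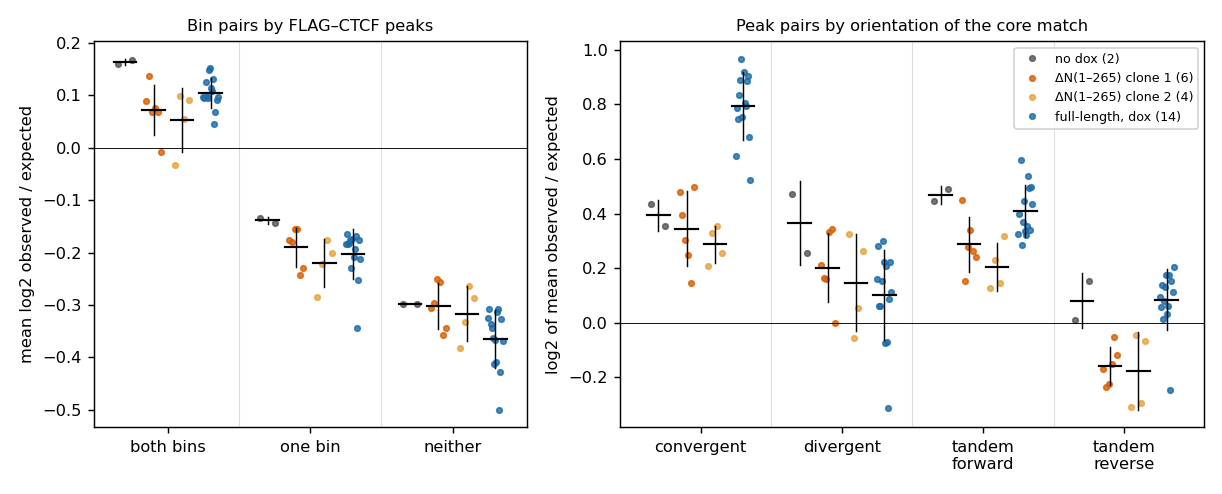
Log2 observed over expected contact (vertical axis) between bins with a FLAG-CTCF peak, by number of bins with a peak and by the direction of the motif matches, 1 point per library with bars for the mean and SD. The ΔN points of convergent pairs, 0.15 to 0.50, lie around the no dox points and below every full-length point.

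Contacts between the boundaries themselves, over 3 by 3 bins at each crossing, gave 0 of 6 adjusted calls. The largest difference was between boundaries 2 and 3, the ends of segment 3. It ran from −0.92 to 0.62 in ΔN with a median of 0.23, and was 0.71 and 0.74 in no dox and 0.70 on average in full-length (exact permutation test, p = 0.0303, adjusted p = 0.182). The ΔN libraries thus spread widely there, with an SD of 0.47, and all lay below no dox.

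Over the whole map at the level of single bin pairs, limma called 1 of 7477 pairs (0.0134%) at an adjusted p under 0.05, and 0 were higher in ΔN. Before adjustment 915 pairs (12.2%) had a p under 0.05, and 773 of them were lower in ΔN. The median log2 difference over all pairs was −0.16, from −0.03 at 40 to 100 kb to −0.22 at 500 to 1000 kb, and single pairs have to be read against that shift. The median standard error was 0.24. In simulated maps of the same size the fit recovered 48% of changes of 1 and 89% of changes of 2 on the log2 scale. Far more changes were planted there than were called here, which makes the Benjamini-Hochberg adjustment less strict. These shares may thus be higher than in the real map, where changes of single pairs of these sizes or smaller could be missed.

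The called pair joined a bin in Hdac8 (chrX:99671148-99691147), which encodes a deacetylase of the cohesin subunit SMC3, with a bin in Tsix (chrX:100631148-100651147), 960 kb away. The Hdac8 bin held 2 peaks, 1 with a match, and the Tsix bin 3, 2 with a match. All 3 matches were reverse, and 1 from each bin is printed above. The corrected contact, scaled so that each map sums to 1000000, ran from 0.606 to 0.884 in ΔN with a median of 0.688, and was 2.13 and 1.88 in no dox. Full-length averaged 1.90 ± 0.361 (SD, n = 14), so full-length and no dox lay together and ΔN stood below both. The log2 difference was −1.37 ± 0.187 (SE, limma adjusted p = 0.0374), and −1.36 and −1.40 with clone 1 or clone 2 alone, where it was not called (limma adjusted p = 0.333 and 0.303). Relative to expected contact it was −1.24 (limma adjusted p = 0.0147). The 8 neighbouring bin pairs were all lower in ΔN, by −0.33 to −1.05 with a median of −0.53, and 4 of them had an unadjusted p under 0.05 in limma. With the run term the difference was −1.12 (limma adjusted p = 0.412) and from raw counts −1.05 (limma adjusted p = 0.0568), and neither passed. Leaving out each library in turn gave −1.46 to −1.29, and the pair was called in 2 of these 12 fits (limma adjusted p = 0.0324 to 0.591).

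**Figure D5:**
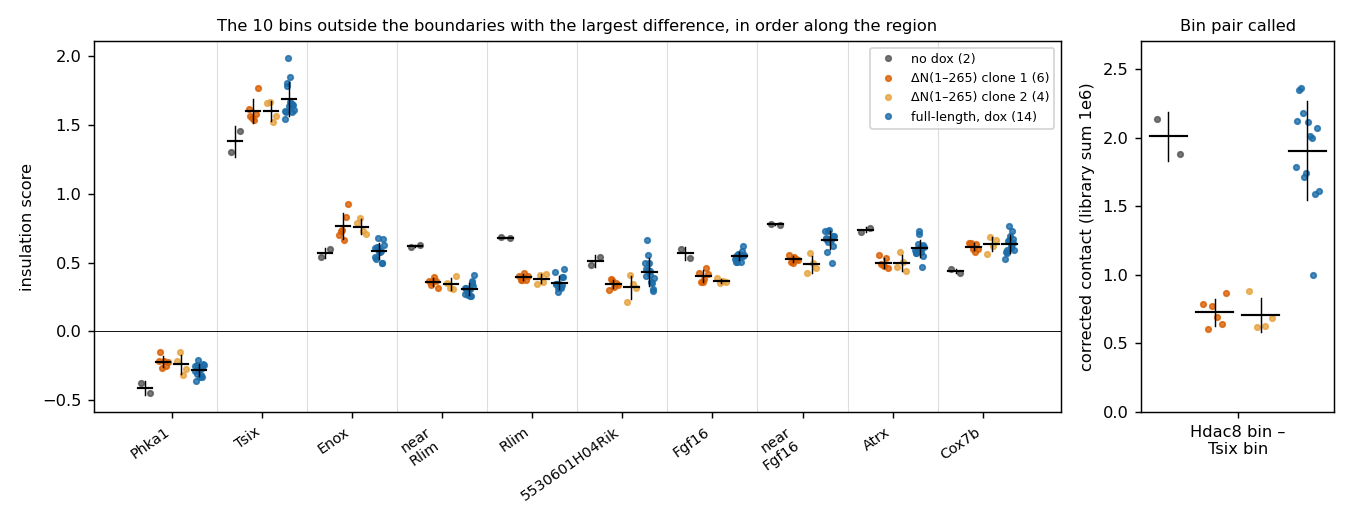
Values by library for the 10 bins named outside the boundaries and for the Hdac8 to Tsix pair, with insulation score (log2) or scaled corrected contact on the vertical axes and bins on the horizontal axis, and bars for the mean and SD. At Rlim the ΔN points of 0.35 to 0.42 lie with full-length and below no dox, and for the Hdac8 to Tsix pair the ΔN points of 0.606 to 0.884 lie below both other groups.

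The clones of ΔN were also compared with each other. Of 68 values compared between clone 1 and clone 2, 5 had an unadjusted p under 0.05 in exact permutation tests and 0 passed the Benjamini-Hochberg adjustment, with a smallest adjusted p of 0.324. With 6 against 4 libraries a small difference between clones could still have been missed.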

How the data were processed

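Per the methods, the authors mapped 5C reads to mm9, counted them per forward and reverse primer pair, corrected the matrices iteratively at the fragment level and scaled each to a sum of 1000000. The deposited files hold raw counts and this corrected signal. Here the mean of the corrected matrix over the primer pairs of each pair of 20-kb bins was taken, from 454 forward and 466 reverse primers. The mapping tool for 5C is not given in the sources used here.

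Single values were compared with two-sided exact permutation tests over libraries (66 arrangements, smallest p 0.0303). Profiles and maps (log2 of contact + 0.1, bin pairs 40 to 1000 kb apart with at least 2 primer pairs) were compared with limma 3.58.1 in R 4.3.3, with Benjamini-Hochberg adjustment and a threshold of 0.05, tested on simulated data. Other values used numpy 2.4.6 and scipy 1.17.1. Named bins were the 6 boundaries and the 10 others with the largest called differences whose groups did not overlap, and named pairs were chosen likewise. Samples and rules were chosen with earlier results of these data known. Alternatives covered window, binning, raw counts, run, clone and each library left out. No 2 of the 12 libraries shared over 2.59% of equal counts.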

Additional observations from a re-analysis of the deposited data

Results flagged for a closer look

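The 6 libraries of clone 1 and the 4 of clone 2 were searched apart for a library far from the rest by Dixon's test. Of the 136 groups searched in all, chance flags about 1 in 20. There were 9 such values, a share near that. The values come from the same maps and are not independent. Clone 1 replicate 6 was low at boundary 1, with an insulation score of −0.36 where the rest of its clone ran from −0.23 to −0.21, and high in the Tsix and Xist bin, with 1.77. It was also low in the contacts of boundary 6 to the right, with 0.68 on the log2 observed over expected scale. Clone 1 replicate 5, the shallowest library, gave −0.92 for contacts between boundaries 2 and 3, where the rest ran from 0.09 to 0.62, and 0.12 for boundary 6 to the left. Clone 2 replicate 1 had a share of contact at 40 to 100 kb of 24.5%, where the lowest of the rest of its clone was 25.8%. It also gave −0.68 for boundary 2 to the left and 0.16 for boundary 6 to the left. Clone 2 replicate 3 had a mean score of 0.17 over bins with a peak. Both outlying replicates of clone 1 come from run G. What set these libraries apart was not tested.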

How the results depend on the processing

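Of 1107 values under alternatives for 55 results, 944 kept direction and side of the threshold or, where no test was run, moved by less than 1 SD between replicates. Mean insulation differed by 0.0925 with clone 1 alone (exact p = 0.0714), 0.120 with clone 2 alone and 0.115 with run D alone (exact p = 0.133 for both), the smallest p these sizes allow, by 0.098 to 0.109 with libraries left out, where the call was lost without either no dox library (exact p = 0.182, the smallest allowed), and by 0.0823 over boundaries 1 to 5. The last, the log2 of the mean ratio and leaving out run G were chosen after seeing the data. The peak-to-peak difference was −0.0623 at 200 to 600 kb (exact p = 0.152), −0.0883 with clone 1, −0.0930 with clone 2, −0.0598 with run D, and −0.097 to −0.084 with libraries left out, again with exact p = 0.182 without either no dox library.

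Calls in the profile numbered 9 from raw counts, where fewer bins were scored, 28 with the run term and 13 to 63 with libraries left out, 13 without either no dox library. Contacts across boundaries gave 0 calls from raw counts, 4 for the median and 5 to 6 with single ΔN libraries left out. Against 1 no dox library no exact test can pass, so calls were not counted for those fits. Contacts within segments gave 5 for the log2 of the mean, and contacts by distance 0 to 5 with single ΔN libraries left out. The contact map gave 2 calls with at least 4 primer pairs or observed over expected, 3 from raw counts or without trend, and 0 for all separations, the median, either clone, run D, the replicate block or without run G, and 0 to 1 with libraries left out. The cause was not tested.

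Signs turned for these values, which had not passed as reported unless named otherwise: boundary 3 from raw counts (−0.0274), boundary 5 one bin upstream (−0.0430), segments 2 and 4 with run D (−0.0200 and −0.0135) or with libraries left out (−0.0147 to 0.0275 and −0.00423 to 0.0334, negative without no dox replicate 1), and the 1000 to 2000 kb share from raw counts (1.34 points). For boundaries 1 and 2 the contact was 0.0740 over 5 by 5 bins, 0.050 with clone 2, 0.152 with run D, 0.00224 for the log2 of the mean, 0.0247 for the median and −0.0605 to 0.0416 with libraries left out. For boundaries 4 and 5 it was −0.0142 from raw counts, and for boundaries 3 and 5 −0.0172 with clone 2 and −0.00220 for the median. Pairs without peaks gave 0.0296 for the log2 of the mean, which reached the smallest p in that opposite direction (exact permutation test, p = 0.0303), 0.0270 for the median, 0.0148 with neighbouring bins and 0.0175 from raw counts. The bin of 5530601H04Rik, which had been called, gave 0.0251 with the run term.

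Replicate numbers 1 and 2 occur in both arms. Same-numbered ΔN and no dox libraries come from different runs, and their deviations correlated with r of 0.0319 to 0.0799. With 2 no dox libraries the deviations of one mirror those of the other, so these r values cannot settle whether the numbers mark a pairing. With the replicate block, single values rest on ΔN replicates 1 and 2, which are the ΔN libraries of run D. The differences in mean insulation (0.115) and peak-to-peak contacts (−0.0598) therefore repeat those with run D alone and add no further check. The profile fit with that block called 53 bins. Only 2 no dox libraries, of run C, carry every comparison.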

Other observations

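Contacts of each boundary bin with bins 40 to 300 kb to its left and right differed in direction between boundaries. To the right of boundary 3 the mean log2 observed over expected contact ran from 0.16 to 0.45 in ΔN, above 0.12 and 0.13 in no dox, with a full-length mean of 0.52. To the right of boundary 2 it ran from 0.44 to 0.80 in ΔN, below 0.81 and 0.91 in no dox, with 1.16 in full-length. Boundary 5 gave −0.28 to the left in ΔN, against −0.44 and −0.51 in no dox and −0.23 in full-length. To its right it gave −0.56, against −0.43 in both and −0.80. To the left of boundary 6 ΔN averaged 0.01, against 0.21 and 0.20 in no dox and 0.19 in full-length. These values were not tested.

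The spread of the insulation score over all 193 bins, as an SD, was 0.42 in ΔN, 0.42 in both no dox libraries and 0.47 in full-length. Over the 41 bins with a peak the mean score was 0.18 in ΔN, 0.17 and 0.16 in no dox and 0.22 in full-length.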
